A study of Mus musculus with 4 samples.

Results

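Luminal epithelial cells of mammary tumors were compared with same-named classes of luminal cells in hyperplastic mammary glands, in mice with activated PKA signaling. The members are all cells that the authors' annotation names Luminal Progenitor 1 or Mature Luminal in the PKA hyperplasia and PKA tumor libraries. They number 5470 of the 6456 annotated cells of these libraries, and of 15445 in the series. Luminal Progenitor 1 held 2885 hyperplasia cells (75.6% of that library) and 2157 tumor cells (81.8%). Mature Luminal held 251 hyperplasia cells (6.57%) and 177 tumor cells (6.71%). Every mouse of the series carries MMTV-PyMT, a transgene in which the mouse mammary tumor virus promoter drives polyoma middle T antigen in mammary epithelium. The labels call the genotype PKA activated and do not say how PKA was activated or in which cells. WT mice of the series carry MMTV-PyMT alone, and their hyperplasia and tumor libraries were used here only to set the same ratios side by side.

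Hyperplastic fat pads came from mice aged 8 to 9 weeks. Tumors came from mice aged 16 to 20 weeks by the sample labels and 22 weeks by the series text, which also says that glands and tumors were taken within the same mouse. Each stage and genotype is a single droplet library, so no test was possible and the spread between mice cannot be estimated. Intervals given below are exact 95% intervals of the count ratio and cover counting error only. Gland digestion lasted 2 to 3 hours in collagenase A with hyaluronidase and continued in trypsin and dispase, whereas minced tumors received collagenase and hyaluronidase in 2 steps of 30 minutes. Stage therefore cannot be told apart from digestion time, enzymes, age or library. All suspensions were FACS sorted by a gate that the labels do not describe.

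The mammary duct is lined by luminal cells resting on contractile basal cells. Luminal progenitors are mostly hormone receptor negative, express Kit, Elf5 and Cd14, and give rise to milk-producing alveolar cells. Mature luminal cells carry the estrogen, progesterone and prolactin receptors and signal to their neighbours through secreted factors. PKA is the kinase opened by cyclic AMP. It phosphorylates many proteins, among them the transcription factor CREB, which binds the cyclic AMP response element. Immediate early genes, such as those of the Fos, Jun and Egr families, switch on within minutes of growth factor, CREB or stress signals, and enzymatic dissociation of tissue is itself known to induce them.

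Unique molecular identifiers (UMIs) were summed over the cells of a class and library and scaled by the class total to CPM, the usual relative abundance of counts, over the 22174 genes with a row in both files. Luminal Progenitor 1 gave 8051311 UMIs in hyperplasia and 13833205 in tumor, and Mature Luminal gave 760233 and 1432376. Tumor cells were deeper, with a median of 5970 against 2588 UMIs per cell in Luminal Progenitor 1 and 8362 against 3051 in Mature Luminal. The annotated PKA libraries shared 20 cell barcodes, 0.758% of the smaller library.

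The class names come from a separate annotation column at each stage, and the sources used here do not say whether 1 rule named the cells of both. A Luminal Progenitor 2 class was named in PKA hyperplasia (454 cells) and not in PKA tumor. Scgb1b27 and Scgb2b27, secretoglobin genes, were among its 10 leading genes and also among those of tumor Luminal Progenitor 1, but not of hyperplasia Luminal Progenitor 1. Leading genes rank a class against the other annotated cells of its own library, so they do not compare the stages. Within Luminal Progenitor 1 itself, Scgb2b27 was at 614 CPM in hyperplasia and 333 CPM in tumor. The names were checked against their defining genes. Mature Luminal cells had Prlr at 3697 CPM in hyperplasia and 2665 CPM in tumor, against 85.7 and 85.7 CPM in Luminal Progenitor 1. Their Pgr stood at 129 and 88.1 CPM and their Esr1 at 118 and 65.7 CPM. Luminal Progenitor 1 cells had Csn3, encoding kappa casein, at 17221 and 27994 CPM and Elf5 at 293 and 291 CPM, with Esr1 at 3.48 and 3.62 CPM. Areg, another hormone target used as a Mature Luminal marker, had 0 UMIs in both classes and both libraries. Tnfsf11, also on that marker list, had 1 UMI in Mature Luminal hyperplasia and 0 in Mature Luminal tumor and in Luminal Progenitor 1. Csn3 and Elf5 were not particular to Luminal Progenitor 1: they stood at 8411 and 195 CPM in hyperplasia Luminal Progenitor 2. In a PKA tumor class named EMT-like they stood at 42610 and 260 CPM. Between the 2 classes compared here, the receptor and casein genes thus lay with their class at both stages. Joint clustering of both libraries nevertheless placed Luminal Progenitor 1 cells of each stage in separate clusters: the 4 largest held 787, 679, 640 and 316 hyperplasia cells and a different 4 held 635, 630, 406 and 286 tumor cells. The tumor cluster with 635 of these cells had the basal markers Krt14 and Krt17 among its 10 leading genes, beside the progenitor markers Aldh1a3 and Ltf. Mature Luminal hyperplasia cells lay mostly in 1 cluster (230 of 251), while tumor cells were split between clusters of 106 and 58 cells, with 13 in the hyperplasia cluster. Clusters led by markers of their own class held 61.8% of hyperplasia and 29.2% of tumor Luminal Progenitor 1 cells, and 91.6% and 92.7% of Mature Luminal cells.

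Most markers of non-epithelial cells were near 0, with a few single genes as exceptions. Ptprc, the pan-leukocyte marker, had 0 UMIs in both classes of both libraries. The 10 macrophage markers together summed to between 9.77 and 19.1 CPM in the 4 class sums. The 7 T cell markers summed to between 0.723 and 14.9 CPM, mostly Trbc2. The 6 fibroblast markers summed to 5.84 and 4.99 CPM in Luminal Progenitor 1 hyperplasia and tumor, and to 119.7 and 30.0 CPM in Mature Luminal, most of it Dcn. S100a8, on the neutrophil list, stood at 581 and 324 CPM in Luminal Progenitor 1 and at 28.9 and 41.9 CPM in Mature Luminal, Hba-a1, a hemoglobin gene, at 64.5 and 112 CPM in Mature Luminal, and Notch3, on the pericyte list, at between 31.4 and 85.2 CPM in the 4 class sums. Their part in the results was not tested. RNA of the other luminal class was also present. The 11 luminal progenitor markers summed in Mature Luminal cells to 6.002% of their Luminal Progenitor 1 level in hyperplasia and 7.85% in tumor.

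A gene was tested when both libraries together held at least 20 of its UMIs in the class, and called when its CPM ratio was at least 2-fold with an interval that left out no change. In Luminal Progenitor 1, 15373 genes were tested, of which 4199 (27.3%) were higher and 1349 (8.78%) lower in tumor. In Mature Luminal, 9318 genes were tested, 1429 (15.3%) higher and 560 (6.01%) lower. Counts of called list members are read below against these shares. The median log2 ratio over all genes tested was 0.32 in Luminal Progenitor 1 and 0.15 in Mature Luminal. With TMM scaling from edgeR those medians were 0.08 and 0.03 and the calls 3432 higher and 1992 lower in Luminal Progenitor 1 and 1216 and 704 in Mature Luminal, so a gene list is read below against the median of all genes and not against 0.

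Promoter stretches of genes described below are shown first, for immediate early genes, which CREB and serum response factor are known to switch on, and for chemokine genes, which NF-kB is known to switch on. Each comes from the 250 bases before the RefSeq start site on GRCm38.p6, written 5′ to 3′ on the gene's strand. In the first set, capitals mark the full cyclic AMP response element, TGACGTCA, which reads the same on both strands. It was found before Dusp1, Btg2 and Maff, the only 3 of the 23 tested immediate early genes with a promoter entry (of 28) to hold it, and before 1.77% of all 27025 genes in the promoter table. Of the genes tested in this class 62.9% had an entry, too few for a share over them, so no enrichment is read from these counts.
Dusp1, chr17:26508578-26508645, minus strand: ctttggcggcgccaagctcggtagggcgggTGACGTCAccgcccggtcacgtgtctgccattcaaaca
Btg2, chr1:134079284-134079351, minus strand: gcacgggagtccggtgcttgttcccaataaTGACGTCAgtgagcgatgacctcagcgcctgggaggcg
Maff, chr15:79347461-79347519, plus strand: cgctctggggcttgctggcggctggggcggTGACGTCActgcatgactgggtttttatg
In the next, capitals mark a CArG box, the site known to bind serum response factor, found before Zfp36 among the same 23 genes and before 1.62% of all genes in the table.
Zfp36, chr7:28379247-28379316, minus strand: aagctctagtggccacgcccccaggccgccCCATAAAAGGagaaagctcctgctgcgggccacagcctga
In the last set, capitals mark matches to GGGNNTTTCC on either strand, a common form of the NF-kB site, found before 1.65% of all genes. Of the 17 chemokine and cytokine genes tested in Luminal Progenitor 1, 10 had a promoter entry, too few for a share, and Cxcl1, Cxcl2 and Csf1 held it.
Cxcl1, chr5:90891126-90891195, plus strand: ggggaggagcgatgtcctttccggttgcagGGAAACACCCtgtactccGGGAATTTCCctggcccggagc
Cxcl2, chr5:90903772-90903841, plus strand: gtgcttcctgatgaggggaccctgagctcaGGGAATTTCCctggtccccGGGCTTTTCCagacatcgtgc
Csf1, chr3:107760584-107760653, minus strand: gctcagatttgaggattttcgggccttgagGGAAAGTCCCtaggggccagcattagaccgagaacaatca
These matches are letters in a window. Binding was not measured.

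Immediate early genes were higher in tumor cells of both classes, and they are set apart from all other genes because digestion differed between the stages. Fos, a subunit of the AP-1 transcription factor, stood at 309 CPM in Luminal Progenitor 1 hyperplasia and 8620 CPM in tumor, and at 239.5 and 5908 CPM in Mature Luminal. Jun, its partner, was at 219 and 4261 CPM in the first class and at 230.3 and 4309 CPM in the second. Klf2, a Kruppel-like factor, was nearly absent in hyperplasia, at 2.36 and 10.5 CPM, and reached 1142 and 1197 CPM in tumor. Dusp1, the phosphatase that ends MAP kinase signals and one of the promoters shown above, was at 89.8 and 1646 CPM in Luminal Progenitor 1. Btg2, an antiproliferative factor, was at 297 and 3212 CPM, Maff, a small Maf factor, at 19.8 and 429 CPM, and Zfp36, which destabilises cytokine mRNAs, at 252 and 1989.8 CPM. Each tumor value exceeded its hyperplasia value by at least the 2-fold that a call needs.

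The immediate early list does not hold Fosl1, a Fos family gene counted below with the ERK feedback genes, where it was lower in Luminal Progenitor 1. Of the 28 immediate early genes tested in Luminal Progenitor 1, 22 were called higher and 0 lower. In Mature Luminal the count was 22 higher and 0 lower of 26. Their median log2 ratio was 2.88 in Luminal Progenitor 1, beside 0.32 over all genes, and 2.86 in Mature Luminal, beside 0.15, or 2.76 with the member at 0 UMIs in hyperplasia set to its bound. The 28 tested genes summed to 10625 CPM in hyperplasia and 49599 CPM in tumor in Luminal Progenitor 1. WT libraries gave a median of 2.86 in Luminal Progenitor 1 and 2.82 in Mature Luminal. There 20 of 28 were higher and 0 lower in Luminal Progenitor 1, and 21 higher and 2 lower of 27 in Mature Luminal, beside 25% higher and 10.6% lower over all WT genes tested in the first class and 11.5% and 10.4% in the second. The digestion protocols differed in the same way between the WT stages. Thinned to 2000 UMIs per cell, 28.9% of Luminal Progenitor 1 hyperplasia cells and 94.9% of tumor cells had a Fos UMI (33.45% and 95.7% before thinning).

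Heat shock genes, the chaperones induced by protein stress, were less uniform. In Luminal Progenitor 1, 4 of 13 were called higher and 0 lower (median 0.52), beside 27.3% higher over all genes. In Mature Luminal the count was 6 of 13 higher and 0 lower (median 0.93), beside 15.3%. WT counts were 5 higher and 1 lower of 13 in the first class and 4 and 2 of 13 in the second. Hspb1, a small heat shock protein, stood at 100.4 and 1443 CPM in Luminal Progenitor 1 and at 39.5 and 1331 CPM in Mature Luminal. Its log2 ratio was 3.85 and 5.08, against 1.63 and 2.18 in WT. Hsp90ab1, the constitutive cytosolic chaperone, differed little, at 1815 and 1846 CPM in Luminal Progenitor 1.

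**Figure D1:**
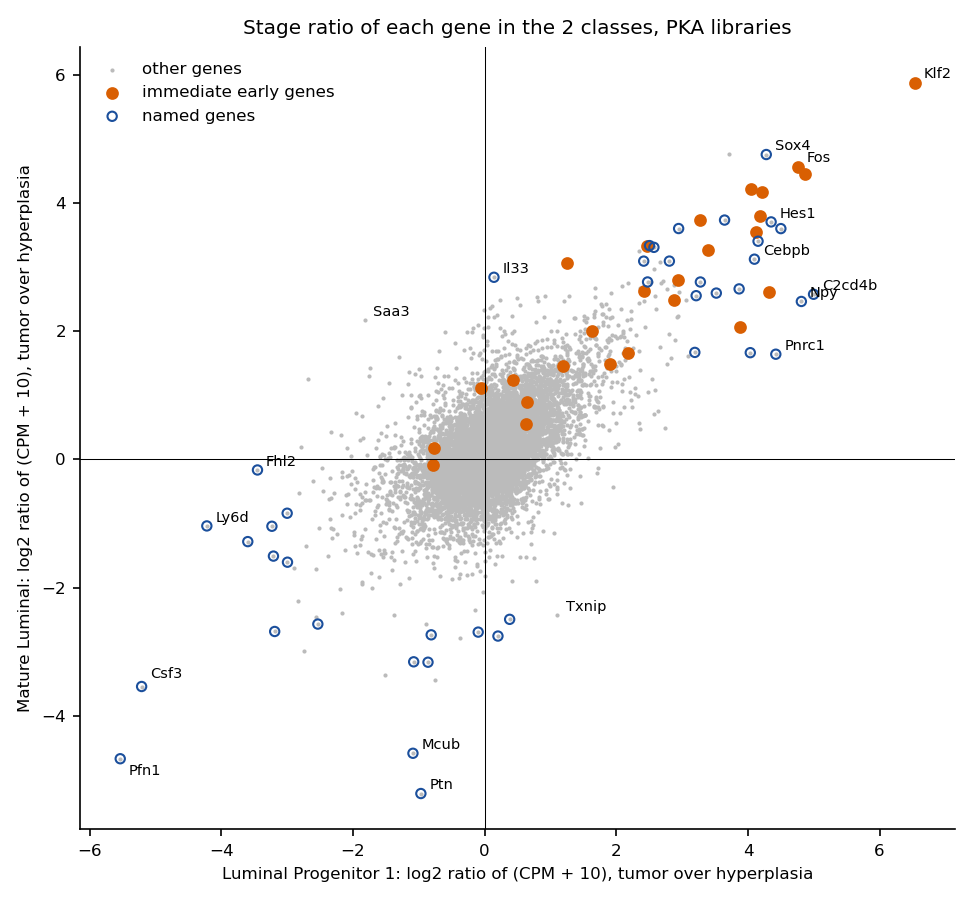
Log2 ratio of (CPM + 10), PKA tumor over PKA hyperplasia, in Luminal Progenitor 1 (horizontal) and Mature Luminal (vertical) for each gene tested in both classes, with immediate early genes filled and the named genes circled. Klf2 and Fos sit far out in the upper right corner and Pfn1 and Csf3 in the lower left. Ptn and Mcub lie lower on the vertical than on the horizontal axis, though both were called lower in Luminal Progenitor 1 too. Fhl2 and Ly6d lie low on the horizontal axis.

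Outside the immediate early and heat shock lists, the genes with the highest ratios in Luminal Progenitor 1 included transcriptional regulators. Hes1, the repressor switched on by Notch, was at 35.2 CPM in hyperplasia and 912 CPM in tumor, 25.9-fold higher (log2 interval 4.53 to 4.87). Sox4, a high mobility group factor used here as an EMT-like marker, was at 31.2 and 789 CPM (4.66; 4.48 to 4.85). Cebpb, needed for alveolar development, was at 32.3 and 715 CPM, and Cebpd, a target of STAT3 in mammary involution, at 106 and 1323 CPM. Cited4, a CBP/p300 binding coactivator, was at 10.8 and 461 CPM. Pnrc1, a nuclear receptor coactivator, was at 48.6 and 1247 CPM, and Tob1, an antiproliferative factor, at 18.8 and 502 CPM. All 7 were called higher in Mature Luminal as well, where Hes1 stood at 67.1 and 995 CPM and Cebpb at 11.8 and 180.3 CPM.

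Npy, Ptx3 and Nrtn, which encode secreted proteins, were also among the 15 highest. Npy, neuropeptide Y (chromosome 6, 49822710 to 49829507, plus strand, GENCODE annotation of GRCm38), was at 7.08 CPM (57 UMIs) in hyperplasia and 469.7 CPM (6492 UMIs) in tumor, 66.3-fold higher (log2 6.05; 5.68 to 6.45). In WT the same ratio was 2.56, from 11.7 to 69.0 CPM. Npy was detected in 0.332% of hyperplasia cells and 18.1% of tumor cells after thinning to 2000 UMIs, so its tumor level came from a minority of cells (0.624% and 25.0% before thinning), and in 0% and 4.07% of Mature Luminal cells (0.398% and 8.47% before). Ptx3, a soluble pattern recognition protein, was at 22.1 and 517 CPM, and Nrtn, neurturin, a ligand of the RET receptor complex, at 2.73 and 176 CPM. C2cd4b had 3 UMIs in hyperplasia and 4440 in tumor, 0.373 and 321 CPM, with a log2 ratio of 9.75 (8.20 to 12.03). The other 4 of the 15 highest were Scand1, Tmem238, Smagp and Rasd1, a Ras-like protein induced by dexamethasone, at 146, 148, 455 and 153 CPM in tumor. All 15 were also called higher in WT Luminal Progenitor 1 and in PKA Mature Luminal. Scand1 had log2 ratios of 5.88 in PKA and 4.01 in WT, and 6.74 and 3.56 in Mature Luminal. For Tmem238 these were 4.55, 4.50, 3.82 and 6.07. The sources used here do not say whether both stages were counted against 1 annotation, so for such genes stage cannot be told apart from counting.

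The lowest ratios in Luminal Progenitor 1 were led by Pfn1, profilin, which feeds actin monomers to growing filaments, at 2063 CPM in hyperplasia and 34.7 CPM in tumor (log2 -5.90; -6.03 to -5.76). The Pfn1 ratio was -5.86 in WT, -4.99 in Mature Luminal and -4.63 in WT Mature Luminal, while of the 23 actin cytoskeleton genes tested 4 were called lower and 0 higher, with a median of -0.43. Cofilin, Cfl1, was at 762 and 592 CPM and Actb at 7765 and 5313 CPM. Neither passed 2-fold. The cause of the Pfn1 difference was not tested, and it too cannot be told apart from counting.

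Genes for signals to immune cells were among the lower ones. Csf3, granulocyte colony-stimulating factor (chromosome 11, 98701263 to 98703629, plus strand), was at 1219 CPM in hyperplasia and 23.2 CPM in tumor, 52.6-fold lower (log2 -5.72; -5.88 to -5.56). After thinning, 28.7% of hyperplasia and 2.65% of tumor cells had a Csf3 UMI (31.65% and 4.87% before), against 10.3% and 0.581% of Mature Luminal cells (12.4% and 3.39% before). Il24, a cytokine of the interleukin-10 family, was at 256 and 2.82 CPM. Of the 17 chemokine and cytokine genes tested in Luminal Progenitor 1, 9 were called lower and 3 higher, with a median of -1.04 beside 0.32 over all genes. The lower members included the neutrophil attractants Cxcl1, at 1059 and 175 CPM, Cxcl2, at 203 and 91.9 CPM, and Cxcl5, at 38.1 and 4.85 CPM. Csf1, the macrophage growth factor, was at 148 and 27.3 CPM and Lif at 179 and 64.6 CPM. Tnf, an exception, was higher, at 55.5 and 125 CPM, as were 2 genes of low level, Cxcl10, at 1.99 and 6.08 CPM, and Il33, with 2 and 18 UMIs (log2 2.39; 0.33 to 5.54). In WT Luminal Progenitor 1 the list's median was -0.997, with Csf3 at a log2 ratio of -5.43.

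NF-kB response genes were split. In Luminal Progenitor 1, 6 of 18 were lower and 4 higher (median -0.55), and in Mature Luminal 5 of 16 were lower and 2 higher (median -0.32). The NF-kB precursor subunits Nfkb1 and Nfkb2 were lower, Nfkb1 at 220 and 82.9 CPM and Nfkb2 at 68.3 and 26.1 CPM. Tnfaip2 was the lowest, at 95.03 and 4.05 CPM. The feedback inhibitors Tnfaip3, at 8.70 and 50.5 CPM, and Nfkbiz, at 107 and 348 CPM, were higher. Nfkbia did not pass 2-fold, at 646 and 1168 CPM.

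The remaining low genes in Luminal Progenitor 1 were of mixed kinds. Ly6d, a surface antigen that is itself a Mature Luminal marker here, was at 897 CPM in hyperplasia and 38.6 CPM in tumor. Its level in Mature Luminal was higher at both stages, 6337 and 3083 CPM. Timp1, an inhibitor of matrix metalloproteases, was at 267 and 12.9 CPM, while its relatives Timp3 and Timp2 were called higher, Timp3 at 19.9 and 131 CPM and Timp2 at 97.8 and 232 CPM. Amtn, amelotin, was at 316 and 6.15 CPM, Cck, cholecystokinin, at 432 and 45.2 CPM, and Angptl4, a lipoprotein lipase inhibitor, at 164 and 9.12 CPM. Fhl2, Muc4, Tubb6, Fam107b, Csn1s2a, Tns4 and Car2 completed the 15 lowest, with log2 ratios between -5.78 (Muc4) and -3.42 (Tubb6). Of the 15 lowest genes, 13 were also called lower in WT. The exceptions were Tns4, a focal adhesion protein, whose WT ratio was -0.57, and Car2, a carbonic anhydrase, whose WT ratio was -0.75.

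**Figure D2:**
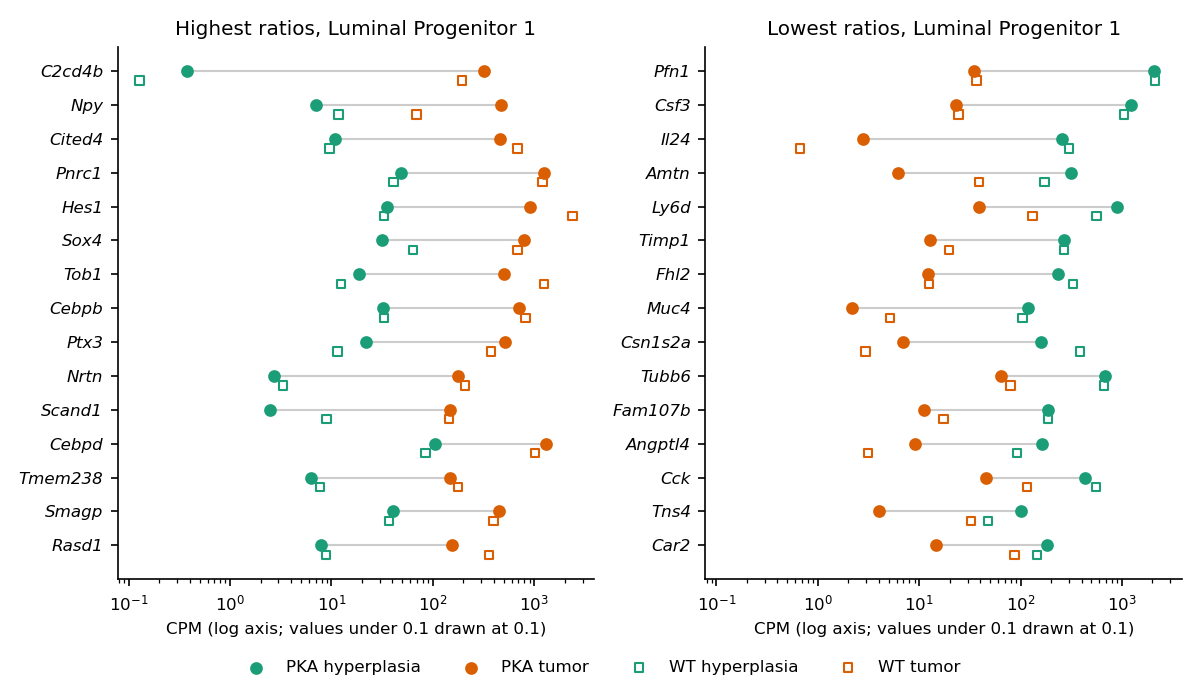
CPM (log axis) of the 15 genes with the highest and the 15 with the lowest tumor over hyperplasia ratio in Luminal Progenitor 1, with PKA libraries as filled circles joined by a line and WT libraries as open squares. The WT squares lie near the PKA circles of their stage for Pnrc1, Cebpb and Pfn1, and the WT squares of Tns4 and Car2 lie closer together than their circles.

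Progenitor identity genes differed in both directions in Luminal Progenitor 1. Of 14 tested, 4 were higher and 5 lower, with a median of -0.35. The receptor tyrosine kinase Kit was at 60.0 and 205 CPM, the iron-binding protein Ltf at 769 and 2361 CPM, and Cldn3, a tight junction claudin, at 1071 and 2314 CPM. Aldh1a3, a retinaldehyde dehydrogenase that marks progenitors, was at 283 and 60.2 CPM and Plet1, a surface protein, at 8615 and 3161 CPM, both called lower. Elf5, the alveolar lineage factor, stood at 293 and 291 CPM and Cd14 at 1093 and 1303 CPM, neither past 2-fold.

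Milk genes showed no common direction in Luminal Progenitor 1. Of 13 tested, 5 were lower and 0 higher, with a median of 0.06. The 5 were caseins of low abundance and the milk fat globule protein Btn1a1. Csn2, beta casein, was at 44.3 and 0.506 CPM, Csn1s2a at 160 and 6.87 CPM, and Btn1a1 at 88.1 and 22.4 CPM. Lalba, the whey protein alpha-lactalbumin, stood at 3166 and 3529 CPM and the casein Csn3 at 17221 and 27994 CPM, both within 2-fold. The WT list median was -0.86, with Lalba at a log2 ratio of -0.86.

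Notch pathway genes were higher in Luminal Progenitor 1: 8 of 11 tested were called, 0 were lower, and the median was 1.40. Notch carries signals between touching cells and is known to hold luminal progenitors in their fate. The receptor Notch1 was at 6.83 and 24.3 CPM and the ligand Dll1 at 1.74 and 17.7 CPM. The target Hey1 was at 46.1 and 276 CPM, and Hes1 is given above. Notch2 and Rbpj, the pathway's DNA-binding factor, were not called, Notch2 at 156 and 101 CPM and Rbpj at 14.8 and 9.04 CPM. In Mature Luminal, 4 of 9 were higher and 0 lower (median 0.84). WT medians were 1.71 and 0.34.

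STAT, SOCS and C/EBP genes held 7 higher and 0 lower of 18 in Luminal Progenitor 1 and 6 higher and 0 lower of 16 in Mature Luminal, with medians of 0.17 and 0.18, so the higher members stood apart from the rest of the list. Besides Cebpb and Cebpd, they included Pim3, a kinase gene downstream of STAT factors, at 6.09 and 86.8 CPM, and the cytokine signaling inhibitor Socs3, at 138 and 394 CPM in Luminal Progenitor 1 and 296 and 888 CPM in Mature Luminal. Stat3 itself was at 369 and 352 CPM in Luminal Progenitor 1. ERK feedback genes were 6 higher and 3 lower of 16 in Luminal Progenitor 1 (median 0.37). Beside both lists, 27.3% of all genes tested in Luminal Progenitor 1 were higher and 8.78% lower, with a median of 0.32. In Mature Luminal the shares over all genes were 15.3% and 6.01%. Dusp6, the ERK phosphatase, was at 80.2 and 760.4 CPM, Spry1 at 1.74 and 27.4 CPM, and Fosl1, an AP-1 subunit that depends on ERK, was lower, at 271 and 44.5 CPM.

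Genes of the PKA pathway itself were measured at both stages in mice labelled PKA activated. Of 17 PKA subunit, inhibitor and anchoring genes tested in Luminal Progenitor 1, 5 were higher and 1 lower (median 0.22), against 6 and 0 in WT (0.03). Over all genes tested in that class of the PKA libraries, 27.3% were higher and 8.78% lower, with a median of 0.32. The catalytic subunit gene Prkaca was at 33.2 and 78.0 CPM and the regulatory subunit gene Prkar2b at 6.34 and 29.4 CPM. Prkar1a, the regulatory subunit gene with the most UMIs, was within 2-fold, at 248 and 274 CPM. The inhibitor peptide genes differed in opposite directions, Pkia at 3.48 and 13.5 CPM and Pkib at 13.7 and 0.724 CPM. The Pkib ratio was -4.24 in PKA and -0.09 in WT, and the Pkia ratio 1.95 and 0.15. In Mature Luminal 1 of 14 was called, Prkar2b, at 67.1 and 219 CPM. Of 18 CREB family and target genes outside the immediate early list, 7 were higher and 1 lower in Luminal Progenitor 1 (median 0.34), beside 8 and 0 in WT (0.44). The salt-inducible kinase Sik1 was at 48.1 and 245 CPM and the clock gene Per1 at 21.0 and 45.7 CPM, whereas Ptgs2, cyclooxygenase 2, was at 70.9 and 1.45 CPM, with a log2 ratio of -5.62 against -0.82 in WT. Among 16 adenylyl cyclase, phosphodiesterase and Epac genes, 1 was higher, Pde7b, at 16.5 and 37.5 CPM, and 3 lower, Adcy5, Adcy10 and the Epac gene Rapgef3, and in Mature Luminal 0 of 7 were called. Values for Gnas are uncertain because several transcripts overlap at that locus.

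MHC class I and peptide loading genes, which present peptides to T cells, had a median of 0.81 in Luminal Progenitor 1, with 5 of 16 higher and 0 lower, against 0.09 in WT with 3 higher and 3 lower. B2m, the shared light chain, was at 3169.7 and 5539 CPM, and H2-D1 at 1497 and 2945 CPM, both under 2-fold. H2-T23 was at 58.8 and 510.3 CPM and the transporter Tap1 at 38.8 and 92.1 CPM, both called. H2-T23 was also called higher in PKA Mature Luminal and in both WT classes, so for it too stage cannot be told apart from counting. The H2 genes are near-identical copies, so reads can be split among them. In Mature Luminal, 1 of 15 was called higher (median 0.21). Of interferon response genes, 3 of 22 were higher in Luminal Progenitor 1 (median 0.28) and 5 of 20 in Mature Luminal (median 0.53), with 0 lower in both. For both lists the share higher over all genes was 27.3% in the first class and 15.3% in the second.

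Cell cycle genes were low at both stages in Luminal Progenitor 1. S phase genes were 5 higher and 0 lower of 17 (median 0.75) and G2/M genes 4 higher and 0 lower of 18 (median 0.68). Over all genes tested there, 27.3% were higher. Mki67, the proliferation marker, was at 1.49 and 3.83 CPM and Top2a at 3.85 and 4.41 CPM, so the ratios are of small sums. The summed G2/M level was 313 CPM in hyperplasia and 235 CPM in tumor, the opposite direction to the list's median. WT medians were 0.56 and 0.68.

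Of 21 epithelial junction genes tested in Luminal Progenitor 1, 6 were lower and 1, Cldn8, was higher, with a median of -0.51. Cdh1, E-cadherin, was at 370.2 and 169 CPM, Jup, plakoglobin, at 441 and 187 CPM, and the gap junction gene Gjb2 at 218 and 89.6 CPM. In Mature Luminal, 0 of 21 were lower and 1 was higher (median -0.01), with Cdh1 at 374 and 307 CPM. Among luminal keratins and Epcam in Luminal Progenitor 1, Epcam was higher, at 1074 and 3159.7 CPM, and Krt19 lower, at 1196 and 423 CPM, while Krt8 stood at 3419 and 2424 CPM.

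Metabolic lists were mixed. Glycolysis and hypoxia genes held 7 higher and 4 lower of 23 in Luminal Progenitor 1. The pyruvate kinase gene Pkm was at 548 and 1329 CPM, and the glucose transporter gene Slc2a1 was lower, at 349 and 88.3 CPM. Unfolded protein response genes held 4 higher and 5 lower of 22: the chaperone Hspa5 and the factor Xbp1 were higher, Hspa5 at 265 and 717 CPM and Xbp1 at 305 and 947 CPM. The integrated stress response genes Atf4, Trib3 and Chac1 were lower, Atf4 at 786 and 259 CPM, Trib3 at 132 and 18.4 CPM and Chac1 at 57.0 and 1.23 CPM. Nuclear oxidative phosphorylation genes had 0 of 38 called in either direction (median -0.31), against 18 of 38 lower in WT (median -0.83). Ribosomal protein genes held 24 lower and 5 higher of 84 (median -0.68). Metallothioneins were lower in both classes, Mt1 at 1773 and 793 CPM in Luminal Progenitor 1 and 5125 and 1420.4 CPM in Mature Luminal. Lipid synthesis, p53 target, acute phase, EGF receptor, Wnt, redox, apoptosis, matrix, basal and secreted protein lists held between 1 and 6 members in each direction in Luminal Progenitor 1, with medians between -0.27 and 0.74. Lineage transcription factors held 6 higher and 1 lower of 15 (median 0.77), among them Id2, at 126 and 748 CPM, and Ehf, at 99.3 and 368 CPM.

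**Figure D3:**
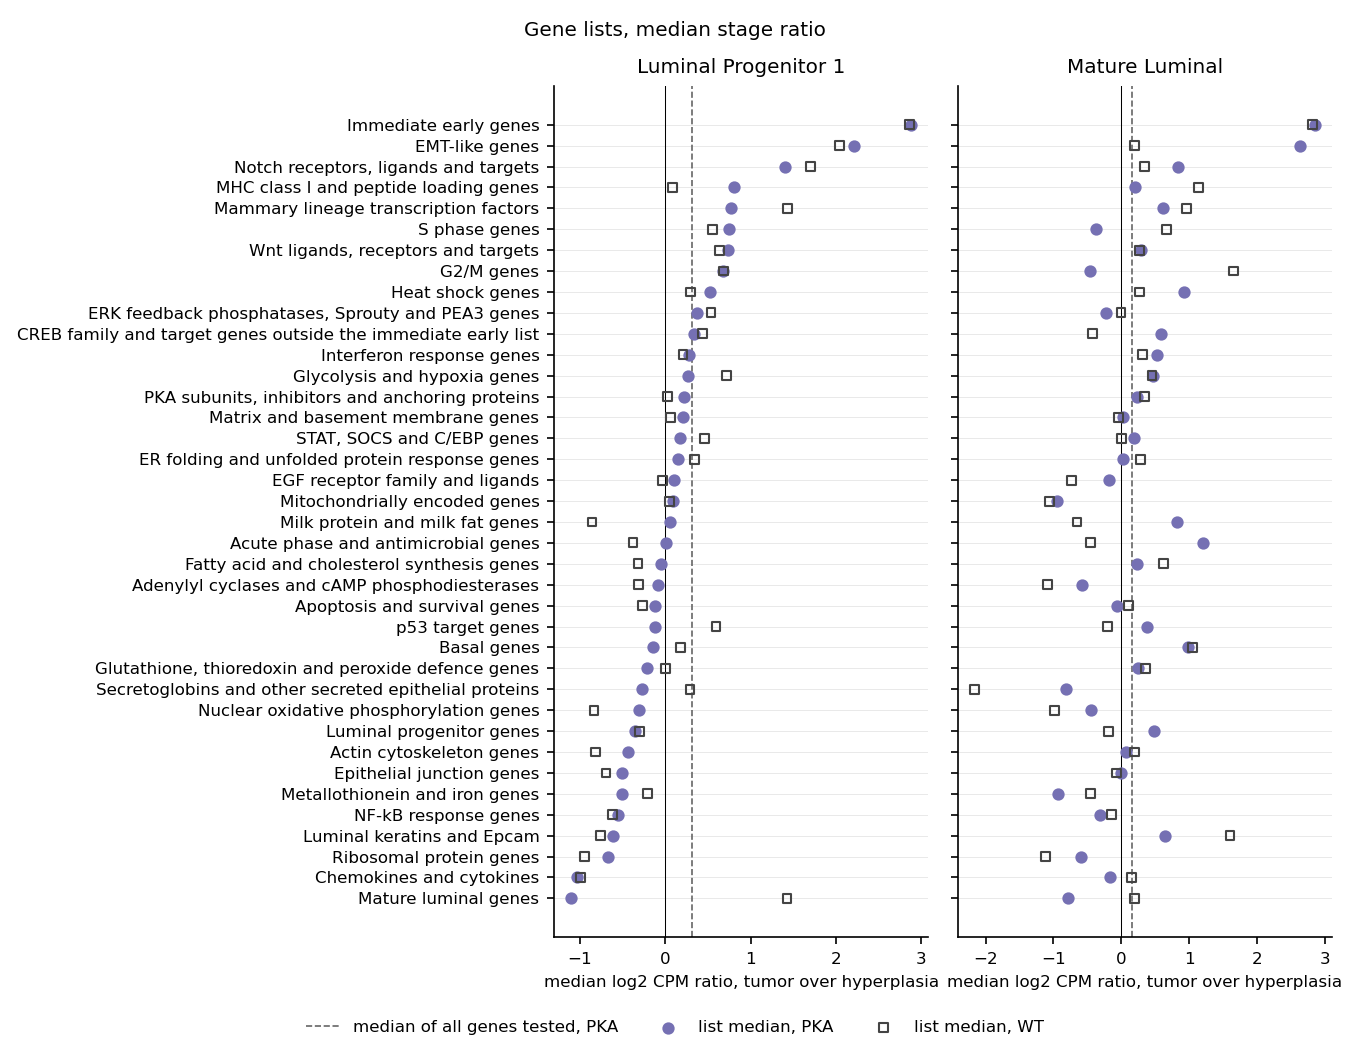
Median log2 ratio, tumor over hyperplasia, of each gene list in Luminal Progenitor 1 (left) and Mature Luminal (right), with PKA as filled circles, WT as open squares and the PKA median of all genes tested as a dashed line. Immediate early genes sit between 2.82 and 2.88 in all 4 comparisons, and the mature luminal list lies below 0 in both PKA classes and above 0 in WT.

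Hormone receptor lineage genes in Mature Luminal cells were lower in tumor or did not pass 2-fold, with 1 exception among 14 tested. The list held 6 lower genes and 1 higher, with a median of -0.78. Ptn, pleiotrophin, a secreted growth factor (chromosome 6, 36714929 to 36810220, minus strand), was at 2898 CPM in hyperplasia and 68.5 CPM in tumor, 42.3-fold lower (log2 -5.40; -5.71 to -5.11). After thinning to 2000 UMIs, 81.6% of Mature Luminal hyperplasia cells and 5.23% of tumor cells had a Ptn UMI (79.3% and 12.4% before), against 2.32% and 0.150% of Luminal Progenitor 1 cells (3.05% and 0.278% before). Cited1, a coactivator of estrogen receptor, was at 1707 and 716 CPM, Gpx3, a secreted peroxidase, at 1691 and 478 CPM, and Tbx3 at 139.5 and 50.3 CPM. Calca, calcitonin, had 22 and 3 UMIs, 29.0 and 2.10 CPM (log2 -3.79; -6.17 to -2.05). Fgb, a fibrinogen chain that marks a subset of mature luminal cells here, was the member called higher, at 400.1 and 1358 CPM.

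The receptors themselves kept within 2-fold. Prlr was given above, with a log2 ratio of -0.47, Pgr had -0.55 and Esr1 -0.85. Foxa1, the pioneer factor of estrogen receptor, stood at 205 and 396 CPM. Wnt4, a progesterone target, stood at 344 and 353 CPM. In WT Mature Luminal the list median was 0.20. Ptn was also lower there (log2 -2.48, from 1076 to 193 CPM), whereas Ly6d was at 201 CPM in hyperplasia and 4964 CPM in tumor.

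The highest ratios in Mature Luminal again included Sox4, Hes1, Cebpb, Tob1 and Cited4. Sox4 was at 36.9 CPM in hyperplasia and 1255 CPM in tumor (log2 5.09; 4.55 to 5.68), against 115 and 440.4 CPM in WT. After thinning, 3.45% of hyperplasia and 77.3% of tumor cells had a Sox4 UMI (9.96% and 96.05% before). Pcp4, a calmodulin regulator, was at 15.8 and 322 CPM and held too few UMIs to be tested in Luminal Progenitor 1, at 0.497 and 1.09 CPM. Il33, an alarmin cytokine, was at 29.0 and 269 CPM, and Id2, an inhibitor of helix-loop-helix factors, at 15.8 and 166 CPM. Several of the highest rested on 1 to 4 hyperplasia UMIs. Scand1 and Cited4 had 1 each, with log2 intervals of 4.24 to 12.05 and 4.10 to 11.91. Smap1 also had 1 (3.78 to 11.59), Bri3 had 2 (3.90 to 8.82), Med30 had 3 (3.21 to 7.08) and Mthfd2l had 4 (3.13 to 6.41). Glrx5 and Tmem238 completed the list. All 15 were called higher in WT Mature Luminal.

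Among the lowest ratios in Mature Luminal after Ptn and Pfn1 were genes of several kinds. Mcub, a subunit of the mitochondrial calcium uniporter complex, was at 699 and 19.6 CPM, and Tph1, the serotonin-synthesising hydroxylase, at 389.6 and 26.6 CPM. Mgp, matrix Gla protein, was at 213 and 23.1 CPM and Cav1, caveolin, at 178 and 18.2 CPM. Kif5c, Celf4, Crispld2 and Reg3g had log2 ratios of -3.28, -4.20, -3.02 and -3.50. Of the 15 lowest, 9 were also lower in WT, and among the others were Csf3, Scgb2b27, Cav1, Kif5c and Reg3g. Csf3, Scgb2b27 and Cxcl1 were more abundant in Luminal Progenitor 1 hyperplasia cells, at 1219, 614 and 1059 CPM, than in Mature Luminal, at 155, 117 and 203 CPM. Csf3 stood in Mature Luminal at 12.7% of its Luminal Progenitor 1 level in hyperplasia and 18.1% in tumor, and Cxcl1 at 19.1% and 14.8%, against 6.002% and 7.85% for the summed progenitor markers. The part of RNA from neighbouring cells in these values was not tested.

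**Figure D4:**
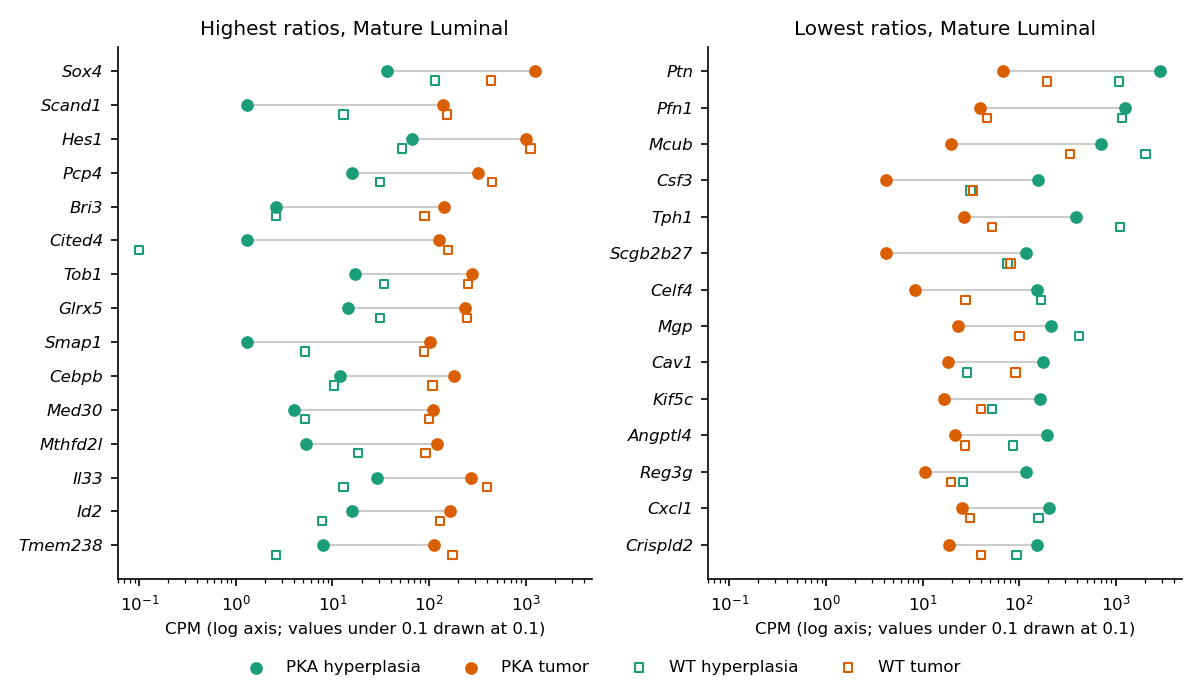
CPM (log axis) of the 15 genes with the highest and 14 of the 15 with the lowest tumor over hyperplasia ratio in Mature Luminal, with PKA libraries as filled circles joined by a line and WT libraries as open squares. Ptn, Csf3 and Mcub have wide gaps on the right, and the 2 WT squares of Csf3 and Scgb2b27 nearly coincide. Cited4 has 0 UMIs in WT hyperplasia and is drawn at 0.1.

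Of 12 acute phase and antimicrobial genes tested in Mature Luminal, 7 were called higher in tumor, 0 lower and 5 not called (median 1.21), against 4 higher and 4 lower of 13 in WT (median -0.45). The 18 list genes with a row in both files summed to 7968 CPM in hyperplasia and 8613 CPM in tumor. Hp, haptoglobin, was at 325 and 755 CPM, Slpi, a secreted protease inhibitor, at 84.2 and 253 CPM and Cp, ceruloplasmin, at 107 and 264.2 CPM. Saa1, a serum amyloid, was at 203 and 469 CPM, but its share of cells with a UMI after thinning was 20.7% in hyperplasia and 4.65% in tumor (30.3% and 21.5% before), which goes against the CPM, so no order is read from it. The same holds for Saa2, at 13.2% and 8.72% (17.5% and 19.8% before), and Chil1, at 17.8% and 8.72% (24.7% and 20.9% before). Saa3 had a UMI in 1.15% and 1.16% of cells after thinning, so its ratio rests on few cells and no order is read from it either. Saa1 and Saa2 are close copies that can share reads. In Luminal Progenitor 1, where these genes were more abundant, the list held 3 higher and 3 lower of 17, with Saa1 at 6346 and 2815 CPM. Clu, clusterin, was called higher in Mature Luminal, at 774 and 4125 CPM, and not in Luminal Progenitor 1, at 1079.9 and 1165 CPM.

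Progenitor genes in Mature Luminal cells had 5 higher and 1 lower of 13 (median 0.49). Elf5 was at 9.21 and 52.4 CPM, Kit at 6.58 and 30.8 CPM and Ltf at 60.5 and 222 CPM. As shares of the Luminal Progenitor 1 level, Elf5 stood at 3.14% in hyperplasia and 18.02% in tumor, and Ltf at 7.87% and 9.38%. Mitochondrially encoded genes were lower in Mature Luminal, 2 of 7 past 2-fold with 0 higher (median -0.95), and the WT median was -1.05. mt-Nd1 was at 12177 and 5001 CPM. The median mitochondrial share per cell was 3.81% in hyperplasia and 1.76% in tumor in Mature Luminal, but 1.61% and 1.57% in Luminal Progenitor 1. CREB family and target genes in Mature Luminal had 7 higher and 2 lower of 17 (median 0.59), against a WT median of -0.43, with Id3, a helix-loop-helix inhibitor, at 176 and 869 CPM. Gata3, the luminal lineage factor, was at 399 and 1072 CPM.

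The other lists in Mature Luminal are given by their counts. Basal genes held 3 higher and 0 lower of 6, luminal keratins and Epcam 1 and 0 of 5, milk genes 2 and 0 of 7, and lineage transcription factors 5 and 0 of 12. Wnt genes held 4 higher and 0 lower of 11 and nuclear oxidative phosphorylation genes 2 and 0 of 36. Epcam, the epithelial adhesion molecule, was the keratin list's member called, at 619.9 and 1850.3 CPM. Ribosomal protein genes held 0 higher and 12 lower of 68, metallothionein and iron genes 2 and 3 of 6, chemokines 1 and 3 of 11, ERK feedback genes 2 and 4 of 13, and secreted proteins 2 and 4 of 8. The glycolysis, lipid, p53, unfolded protein response, EGF receptor, matrix, actin, redox, apoptosis, S phase and G2/M lists held between 0 and 4 members in each direction. Sox4 and the claudin gene Cldn6, at 17.1 and 110.4 CPM, were 2 of the 3 genes tested of the list named EMT-like, and both were higher. In Luminal Progenitor 1 Sox4 and the intermediate filament gene Vim, at 6.34 and 29.7 CPM, were higher and Trim29 was lower. The PKA tumor class named EMT-like itself had Sox4 at 340 CPM, Vim at 25.8 CPM, and Cldn6 and Trim29 at 0 CPM. The list's name is therefore not read as likeness to that class. Mature luminal genes within Luminal Progenitor 1 held 1 higher and 6 lower of 10 (median -1.10), with Prom1 higher, at 10.8 and 47.4 CPM. In WT Luminal Progenitor 1 the same list held 7 higher and 2 lower of 13 (median 1.43).

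The classes were then set against each other. Of 9154 genes tested in both, 1580 were called higher in Luminal Progenitor 1 and 1386 in Mature Luminal. Of these, 792 were called higher in both, 50.1% of those higher in Luminal Progenitor 1 and 57.1% of those higher in Mature Luminal. Of the same 9154 genes, 783 and 520 were called lower, with 192 lower in both, 24.5% and 36.9% of each list. Both classes come from the same libraries and so share whatever differs between libraries. Calls in opposite directions numbered 52. Txnip, an inhibitor of thioredoxin, was among 20 genes higher in Luminal Progenitor 1 and lower in Mature Luminal, at 29.3 and 74.7 CPM in the first and 255 and 39.1 CPM in the second. The other 32 included Lypd3, a Ly6 family protein, at 454 and 61.9 CPM and 57.9 and 152 CPM, the growth factor Mdk, midkine, at 18.5 and 1.59 CPM and 30.3 and 112 CPM, and Trp63, the basal master factor, at 12.8 and 3.83 CPM and, from 1 and 29 UMIs, 1.32 and 20.3 CPM (log2 3.95; 1.35 to 9.30).

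Among genes with at least 100 CPM in 1 of the 4 sums and 20 UMIs in both classes, ranked with 10 CPM added, the 8 whose log2 ratio in Luminal Progenitor 1 most exceeded that in Mature Luminal were Ptn, Txnip, Mcub, Mgp, Crispld2, Pnrc1, AW112010 and Kif5c. The difference was 4.04 for Txnip (counting interval 3.57 to 4.52) and 2.79 for AW112010, a long noncoding transcript at 6225 and 1668 CPM in Mature Luminal. For Ptn it was 2.67 (2.01 to 3.34), but 0.29 without the 5% of cells with the most UMIs, and it rested on 109 and 28 Ptn UMIs in Luminal Progenitor 1. At the other end stood Saa3, Lypd3, Fhl2, Ly6d, Cbr2, Ptges, Mdk and Tpm2. Saa3 differed by -6.05 (-7.88 to -4.22), at 107 and 23.2 CPM in Luminal Progenitor 1 and 2.63 and 46.8 CPM in Mature Luminal, from 2 and 67 UMIs in the few cells given above. Ly6d differed by -3.50 and Fhl2, a LIM domain cofactor, by -4.07, with Fhl2 at 233 and 12.2 CPM in the first class and 154 and 136 CPM in the second.

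The same ratios in WT libraries lay close in Luminal Progenitor 1 and less so in Mature Luminal. Within Luminal Progenitor 1, 14258 genes were tested in both genotypes, with 3626 called higher in PKA and 3481 in WT. Of these, 2503 were higher in both, 69.0% of the PKA calls and 71.9% of the WT calls. Lower were 1290 and 1507, with 822 lower in both, 63.7% and 54.55%. Within Mature Luminal, 9224 were tested, with 1402 higher in PKA, 1232 in WT and 589 in both, 42.0% and 47.8%. Lower were 534 and 1042, with 236 lower in both, 44.2% and 22.65%. Over genes with at least 100 CPM, Pearson's r across genes was 0.86 in Luminal Progenitor 1 (1976 genes) and 0.63 in Mature Luminal (2153 genes). Genes are not independent replicates, so this is a description. Outside the groups of genes left out of naming, 253 genes in both classes and both genotypes were called higher and 65 lower. Among them, 33 higher and 2 lower genes were at least 4-fold, with log2 ratios within 1 of each other, in every comparison that had a ratio. They included Nrtn, Smagp and H2-T23. A comparison with 0 UMIs in a library has no log2 ratio and was passed over, as for C2cd4b in PKA Mature Luminal. WT Mature Luminal hyperplasia held 116 cells, fewer than any other class sum used. Genes with opposite calls in PKA and WT are given in the closing section.

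**Figure D5:**
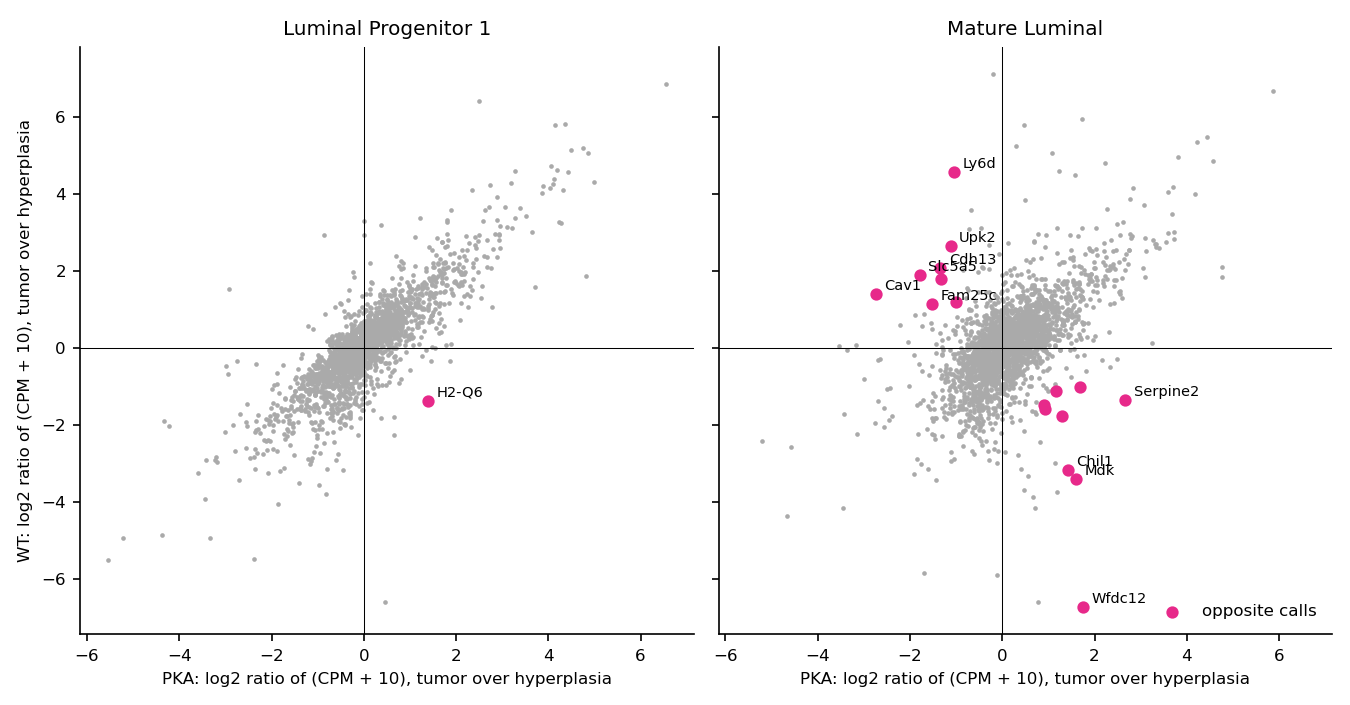
Log2 ratio of (CPM + 10), tumor over hyperplasia, in PKA (horizontal) and WT (vertical) libraries for genes with at least 100 CPM in any of the 4 sums, in Luminal Progenitor 1 (left) and Mature Luminal (right), with genes of opposite calls and at least 100 CPM in the higher PKA library in pink. H2-Q6 is the single such gene on the left, and Ly6d at the top and Wfdc12 at the bottom are the farthest on the right.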

How the data were processed

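Single-cell RNA was measured in 4 droplet libraries, 1 for each stage and genotype. The authors deposited UMI counts per gene and cell with a table of cell annotations, and their class names were used as given. Tools listed in the submitters' processing notes are featureCounts of Subread 1.6.0, STAR 2.5.3a and Cell Ranger, with builds GRCm38 and mm10. The mitochondrial share per cell was computed by the authors and deposited as a fraction of the cell's UMIs. Deposited counts were summed over annotated cells of a class. CPM used the total over genes with a row in both files, which left out 0.0212% of hyperplasia and 0.0867% of tumor UMIs. The hyperplasia and tumor libraries held 1040 and 296 barcodes without annotation, which were left out. Ratios carry exact conditional binomial 95% intervals (SciPy 1.17.1, Python 3.11.15), which cover counting error only.

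A gene was tested at 20 UMIs or more in both libraries together and called at 2-fold or more with an interval without 0. List medians have 0.5 UMI added. Genes were named by rank: within a class, the 15 at either end of the ratio with 10 CPM added, given at least 100 CPM in the higher library. Immediate early, heat shock, mitochondrial, ribosomal protein, haemoglobin, predicted and sex-linked genes and markers of non-epithelial cells were left out of this ranking, and members of the gene lists could be named too. Some genes that these rules select are not reported here. The 8 class differences on each side were chosen by the same measure. The members, lists and rules were chosen with earlier results of these data known, and a few further genes were named after their values were seen. The calling script was tested on simulated data. Both PKA libraries were clustered jointly (scanpy 1.11.5, 2000 variable genes, 30 components, 15 neighbours, Leiden resolution 1). Scrublet called 6 of 6456 cells (0.0929%) and was taken as not having worked, so no doublets were removed and an alternative left out the 5% of cells with the most UMIs. TMM factors came from edgeR 4.0.16 (R 4.3.3). Cells were thinned to 2000 UMIs for shares of cells with a UMI, which left out 775 and 158 Luminal Progenitor 1 and 77 and 5 Mature Luminal cells in hyperplasia and tumor.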

Additional observations from a re-analysis of the deposited data

Results flagged for a closer look

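Genes with at least 100 CPM in the higher PKA library were listed where the tumor over hyperplasia ratio was called in opposite directions in PKA and in WT. The difference between genotypes was not tested, since each group is 1 library, and WT Mature Luminal hyperplasia held 116 cells.

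In Luminal Progenitor 1 this held for H2-Q6, an MHC class I gene, at 45.1 CPM in PKA hyperplasia and 134 CPM in PKA tumor against 96.8 and 31.4 CPM in WT, a difference of 3.20 between the log2 ratios. Its near-identical copies can share reads.

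In Mature Luminal, 9 genes given here had a CPM ratio called higher in PKA tumor and lower in WT tumor. Wfdc12, a protease inhibitor gene, was at 29.0 and 122 CPM in PKA and at 3185 and 19.9 CPM in WT, a log2 difference of 9.36. Mdk, midkine, was at 30.3 and 112 CPM in PKA and 278.7 and 17.4 CPM in WT (5.86). Chil1, a chitinase-like protein gene, was at 132 and 368 CPM in PKA and 341 and 28.9 CPM in WT (5.04). Chil1 stood in PKA Mature Luminal at 4.96% of its Luminal Progenitor 1 level in hyperplasia and 27.7% in tumor. Serpine2, a protease inhibitor gene, differed by 4.53. The serum amyloid genes Saa2 and Saa1 differed by 3.62 and 2.48. For Chil1, Saa2 and Saa1 the share of PKA Mature Luminal cells with a UMI, thinned to 2000 UMIs, was lower in tumor (8.72%, 8.72% and 4.65%) than in hyperplasia (17.8%, 13.2% and 20.7%), so no order between the PKA stages is read for them. Dbn1, which binds actin, differed by 3.19, Tuba1a, a tubulin, by 2.80, and Ctxn1 by 2.65.

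In the same class, 8 genes were lower in PKA tumor and higher in WT tumor. Ly6d was at 6337 and 3083 CPM in PKA and at 200.6 and 4964 CPM in WT (-5.66). Fam25c was at 2287 and 791 CPM in PKA and 224 and 504 CPM in WT (-2.69). Slc5a5, the iodide transporter, was at 246 and 64.3 CPM in PKA and 44.3 and 193 CPM in WT (-4.01). Cdh13, a cadherin, differed by -5.02, Upk2, a uroplakin, by -4.94, Cav1 by -4.89, Cysrt1 by -3.54 and Ramp1, a receptor accessory protein, by -2.56.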

How the results depend on the processing

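Each choice was changed singly: scaling, the minimum of UMIs, filters on cells, the cells taken into a class, genes with a row in either file, and the genes left in the totals. The named genes kept their direction and their call in all 779 recomputed values. Of 52 recomputed counts of called genes, 3 moved by over 1.5 times. At a minimum of 100 UMIs, 2212 genes were higher in Luminal Progenitor 1, and 523 were higher and 176 lower in Mature Luminal, where fewer genes are tested. The immediate early median in Luminal Progenitor 1 was 2.65 with TMM factors, 2.755 with cells of at least 2000 UMIs, 2.76 without the 5% of cells with the most UMIs and 3.11 in clusters led by markers of their own class. Of the recomputed list medians, 1035 were counted as the same, 94 as moved and 7 as changed in sign. Among those that moved, 27 did so with TMM factors and 15 in clusters led by markers of their own class. The medians that changed sign are given next. In Luminal Progenitor 1 with TMM factors these were the PKA list (-0.01945), mitochondrially encoded genes (-0.1526) and progenitor markers (-0.08112). Mitochondrially encoded genes were at -0.1541 with Luminal Progenitor 2 added to hyperplasia and at -0.11 in clusters led by own markers, where Lumino-Basal markers were at -0.002564. Milk genes in Mature Luminal were at -0.06492 with a minimum of 1 UMI, against 0.82 with the minimum of 20 UMIs. The cause of these shifts was not tested. Leaving out cluster 10, led by Fgg and Fgb, from Mature Luminal was chosen after seeing the data and moved neither of its counts of called genes by over 1.5 times. Of the class differences, 1 of 187 recomputed values lost its call, that of Ptn. Ranking with 50 CPM added kept 20 of 30 named genes in Luminal Progenitor 1 and 15 of 30 in Mature Luminal. No paired analysis was possible because each group is 1 library. Genes with few hyperplasia UMIs in Mature Luminal carry wide intervals.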
